A study of Mus musculus with 18 samples.

Results

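The region described here is a 5-Mb stretch of mouse chromosome 10, chr10:92000001-97000000 in the mm8 build, as contacted by the Ifng gene. It was covered by 869 of the 384942 probes of each array, spaced at a median of 4743.5 bp with a largest gap of 32878 bp. Its members were selected on measured values: the region had been put forward because Ifng contacts there were low in Th2 cells, so every comparison with the Th2 arrays of the Ifng bait is given as a description with no test. It lies between 20.75 and 25.75 Mb on the centromeric side of the bait, whose centre was placed at 117.75 Mb.

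The study measured the contacts of Ifng and Il4 by 4C on microarrays in mouse cells. In 4C, chromatin is fixed, cut and ligated, and the fragments joined to a chosen gene (the bait) are amplified from that gene and hybridised to probes along the genome. A high value at a probe means that the fragment was often joined to the bait, hence often near it in the nucleus. Ifng encodes interferon-gamma, by which T helper 1 (Th1) cells are defined. Interleukin-4, the product of Il4, defines T helper 2 (Th2) cells. STAT4 acts downstream of interleukin-12 in Th1 differentiation, and STAT6 downstream of interleukin-4 in Th2 differentiation. A chromosome contacts itself more than other chromosomes, and in most cells the contacts of a gene with its own chromosome fall with distance and are broken into domains.

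The Ifng bait was read on 10 arrays in 5 groups of 2. These were naive CD4 T cells, cells differentiated to Th1 or to Th2, Th1 cells with a Stat4 knockout (S4KO in the labels), and the 3T3-L1 cell line. 3T3-L1 is a mouse preadipocyte line of fibroblast origin, and both its arrays come from 1 line. The Il4 bait was read on 8 arrays in 4 groups of 2, which were wild-type naive, Th1 and Th2 cells and Th2 cells with a Stat6 knockout. Mouse strain, age, the construction of the knockouts and the culture conditions are not given in the sources used here. Some labels conflict: every array has a protocol written for adherent cells with baits that are neither Ifng nor Il4, and a T cell type is entered for 3T3-L1 as well. One pooled array is mentioned in the series' design, with no word on which it is. Titles and source names were followed, and 4C values offer no cell type marker by which the cells could be checked. P-values measure the spread between the arrays of a group, which may be partly technical.

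The values are log2 ratios of 4C DNA over digested genomic DNA, centred on the median of the probes off chromosome 10, so 0 is the level of an average probe on another chromosome. A pair of arrays stood apart. Over all probes, Ifng Th1 replicate 2 and Il4 Th2 replicate 2 correlated at r = 0.35, while the first correlated at 0.15 and the second at 0.24 with its own replicate. Tests on the Ifng Th1 and Il4 Th2 groups are therefore also given without these arrays. Probe lists and bin orders that need both Th1 arrays have no such value. Within the region, Ifng Th1 replicate 2 had r = 0.10 with the Il4 Th2 array and r = 0.24 with its own replicate. The spread of the 500-kb bins off chromosome 10 (their median absolute deviation) also differed 2.78-fold between the widest and the narrowest Ifng array, and the Th1 arrays were the narrowest.

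Averaged over its 869 probes, the region stood highest in naive cells and near 0 in 3T3-L1. The mean log2 ratio was 1.00 and 1.08 on the naive arrays, 0.77 and 0.98 on the Stat4 knockout arrays, 0.60 and 0.72 on the Th2 arrays, 0.69 and 0.55 on the Th1 arrays, and 0.07 and 0.09 on the 3T3-L1 arrays. The naive arrays lay above all others, the Th1 and Th2 arrays overlapped, and the 3T3-L1 arrays lay below every T cell array. The order of the means was naive (1.04 ± 0.05, SD, n = 2), Stat4 knockout (0.87 ± 0.15), Th2 (0.66 ± 0.09), Th1 (0.62 ± 0.10) and 3T3-L1 (0.08 ± 0.02). The step from Th2 to Th1 was smaller than the spread within either group.

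**Figure D1:**
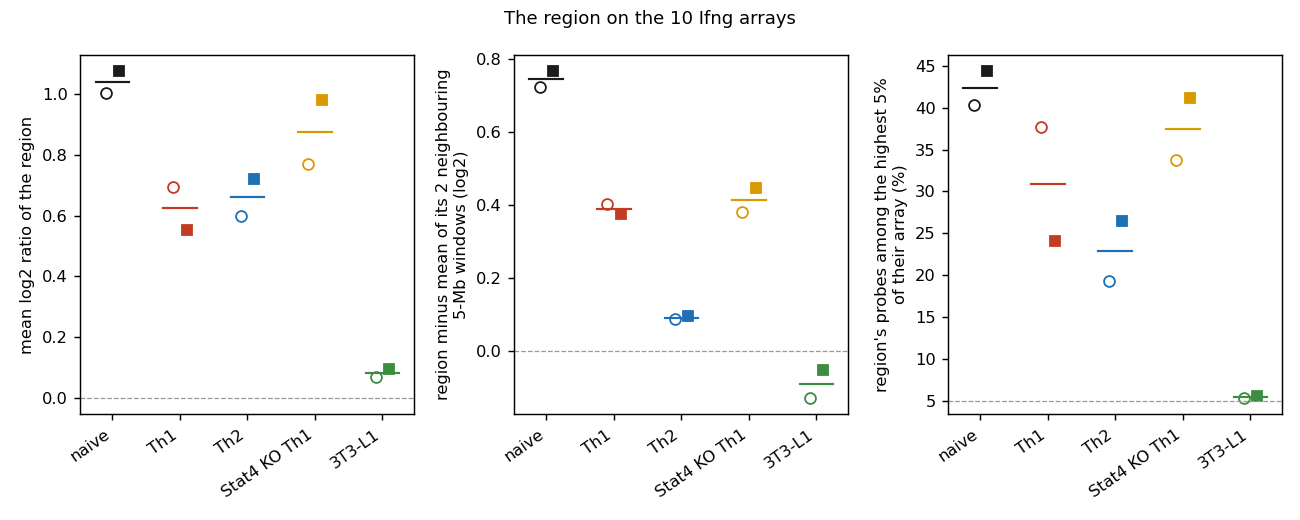
The region on the 10 Ifng arrays: its mean log2 ratio (left), its log2 ratio minus the mean of its 2 neighbouring 5-Mb windows (middle) and the percentage of its 869 probes among the highest 5% of their array (right). Open circles are replicate 1, filled squares replicate 2 and horizontal lines the group means; dashed lines mark 0 or, on the right, 5%. The 3T3-L1 arrays are lowest in all 3 panels, while the Th2 arrays separate from the Th1 arrays in the middle panel, at 0.09 and 0.10 against 0.40 and 0.38.

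The label of the region, contacts lost in Th2, held for some measures and not for others. As a whole the region was 0.38 lower in Th2 than in naive cells (SE 0.07), a difference that became 0.040 when each array was divided by its spread off chromosome 10. Against Th1 cells it was 0.04 higher, but 0.70 lower (change -0.70) after division by spread and -0.60 after division by the level at 1 to 2 Mb from the bait. The mean level thus gave no stable order of Th2 and Th1, and without Th1 replicate 2 the difference was -0.03. By the leading digits of the array numbers, both naive arrays and 1 Th1 array formed one series, and both Th2 arrays and the other Th1 array formed another. No series held naive and Th2 arrays, and with series as a block, linked only through Th1, Th2 minus naive was -0.24. On the Th2 arrays the region stood little above its surroundings. The 2 adjoining 5-Mb windows averaged 0.28 and 0.31 on the naive arrays, 0.29 and 0.18 on the Th1 arrays, 0.39 and 0.53 on the Stat4 knockout arrays, and 0.51 and 0.63 on the Th2 arrays. The region thus rose above its surroundings by 0.72 and 0.77 in naive cells, 0.40 and 0.38 in Th1, 0.38 and 0.45 in the Stat4 knockout, and only 0.09 and 0.10 in Th2. In 3T3-L1 it was a shallow dip, at -0.13 and -0.05 against its neighbours. Among the 26 windows of chromosome 10, counted from the highest, the region had rank 3 on both Th1 arrays, rank 4 on both Stat4 knockout arrays, rank 7 on both Th2 arrays, ranks 8 and 5 on the naive arrays, and ranks 24 and 17 on the 3T3-L1 arrays.

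**Figure D2:**
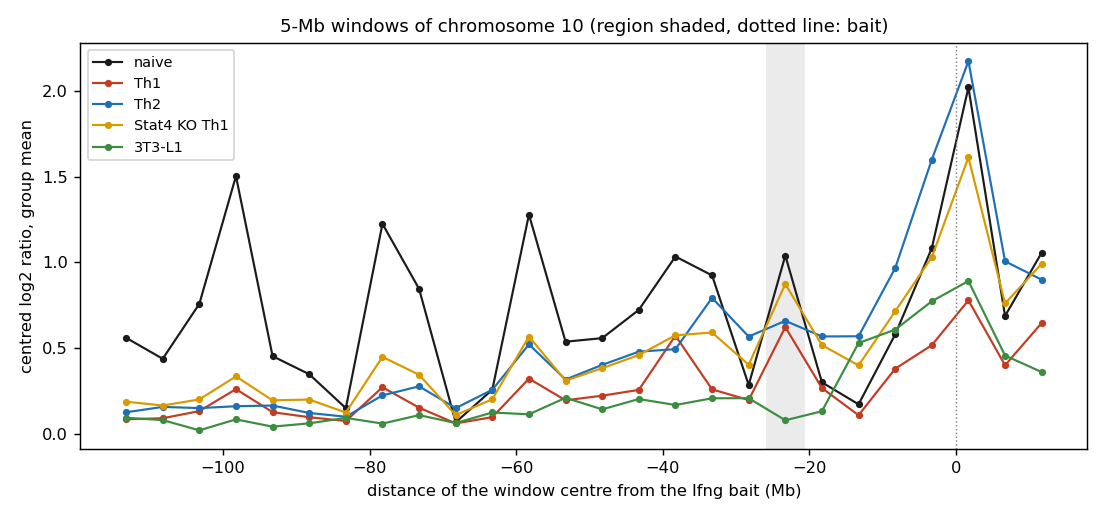
Group means of the centred log2 ratio in 26 windows of 5 Mb along chromosome 10, against the distance of the window centre from the Ifng bait in Mb. The shaded window is the region, at 1.04 in naive, 0.87 in Stat4 knockout, 0.66 in Th2, 0.62 in Th1 and 0.08 in 3T3-L1 cells; the Th2 line passes over it with little rise.

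The region had sharp edges in naive cells. The bins of 500 kb just outside it, from 91 and 91.5 Mb on the far side and from 97 and 97.5 Mb on the near side, had naive means of 0.02, 0.07, 0.18 and 0.19. Inside, 9 of the 10 bins had naive means from 0.71 to 1.45, and the outermost bin, from 92 Mb, had 0.50. A further block of high contact followed from 98 to 99 Mb, with naive means of 0.73 and 0.92. In 3T3-L1 cells the same bins inside and outside the edges ranged from -0.02 to 0.25, with no step at either edge. In Th2 cells the 4 outside bins were at 0.27 to 0.51 and the inside bins at 0.37 to 1.03. The near edge was shallower than in naive cells, with a fall from 0.54 to 0.27 in Th2 against 0.71 to 0.18. The far edge was not, with a rise from 0.27 to 0.76 in Th2 against 0.07 to 0.50 in naive cells.

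**Figure D3:**
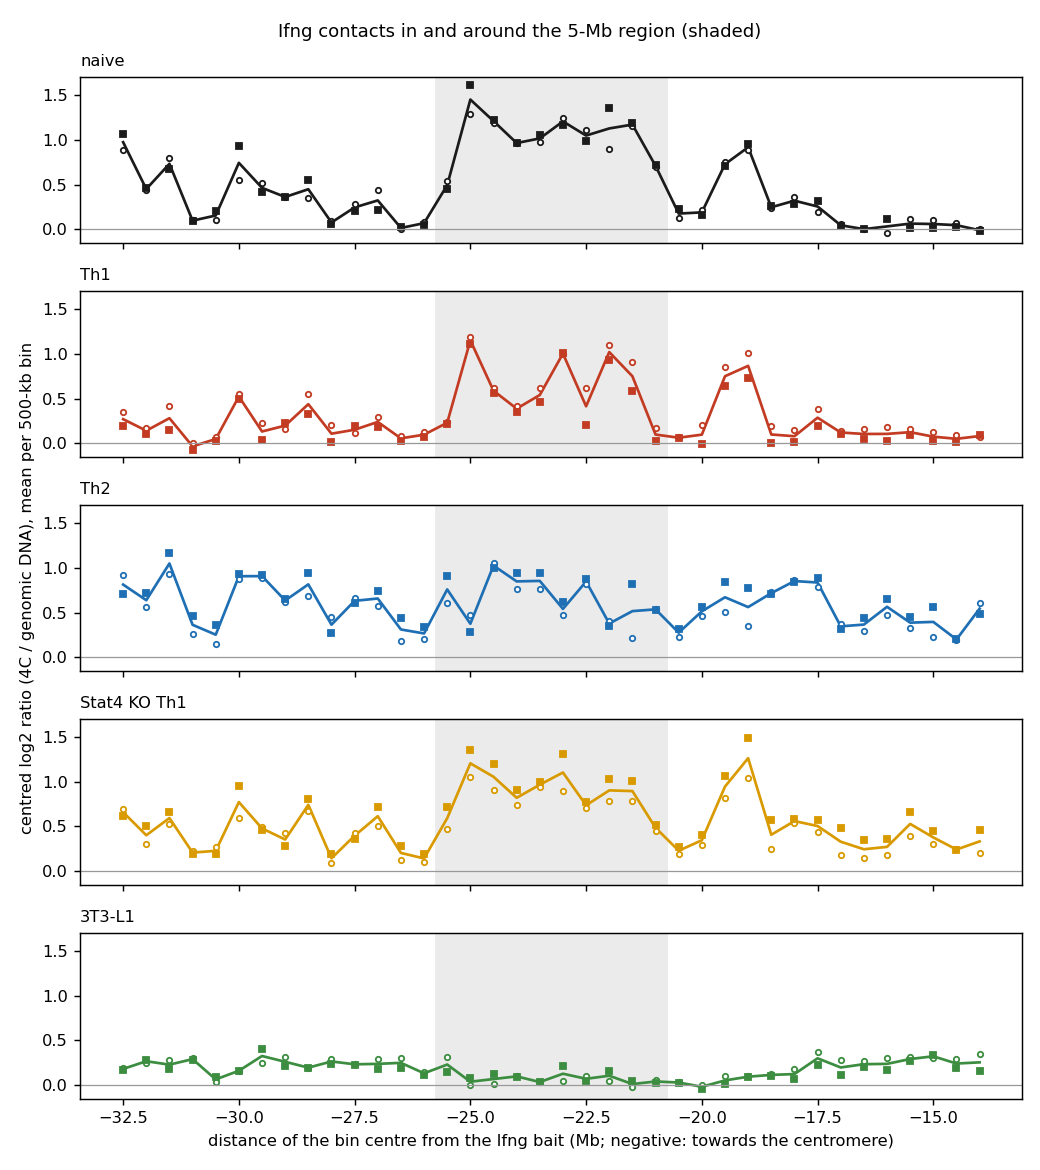
Mean centred log2 ratio in 500-kb bins in and around the region (shaded) against the distance of the bin centre from the Ifng bait in Mb, one panel per group. Lines are group means, open circles replicate 1 and filled squares replicate 2; the naive profile stays above 0.7 in 9 of the 10 shaded bins, the Th1 and Th2 profiles peak in different bins, and the 3T3-L1 profile has no rise inside the shading.

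Bin by bin, and before any scaling of the arrays, Th1 and Th2 cells were high in different pieces of the naive domain. The bin from 92.5 Mb was the highest of the region in naive cells, at 1.29 and 1.62, and stayed high in Th1 (1.20 and 1.11) and the Stat4 knockout (1.06 and 1.35). On the Th2 arrays it was at 0.47 and 0.28, with the bin from 95.5 Mb the lowest of the region in Th2, and on the 3T3-L1 arrays it was at 0.00 and 0.07. The bin beside it, from 93 Mb, was at 1.20 and 1.23 in naive cells and at 1.06 and 1.00 in Th2, the highest Th2 bin, but at 0.61 and 0.56 in Th1. The Stat4 knockout had 0.91 and 1.20 there, and 3T3-L1 0.01 and 0.12. The 2 adjacent bins thus swapped order between Th1 and Th2, with no overlap between the arrays of these groups in either bin.

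The third of the bins with the highest naive mean, from 94.5 Mb, behaved like the one from 92.5 Mb. Its values were 1.24 and 1.17 in naive cells, 1.00 and 1.01 in Th1, 0.90 and 1.31 in the Stat4 knockout, 0.47 and 0.62 in Th2, and 0.04 and 0.21 in 3T3-L1. In the bin from 95.5 Mb Th2 was again the lowest of the T cells, at 0.41 and 0.35. There the Th1 arrays (1.11 and 0.94) lay between the naive ones (0.90 and 1.36). The Stat4 knockout, at 0.78 and 1.03, had a lower mean than Th1. The bin from 96 Mb read 1.16 and 1.19 in naive cells and 0.22 and 0.82 in Th2, so its Th2 arrays were both lower but far apart. In 5 other bins the Th2 mean differed from the naive one by -0.20 to -0.12, and in the bin from 92 Mb it was above it (0.60 and 0.91 against 0.54 and 0.45).

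Bins in which, before scaling, Th1 was low and Th2 stayed closer to naive cells lay between and beside these. The low Th1 level depended on scaling. With arrays divided by spread or near-bait level, Th1 exceeded naive cells in the bins from 93, 94 and 96 Mb. The bin from 93.5 Mb read 0.97 on both naive arrays, 0.76 and 0.94 on the Th2 arrays and 0.42 and 0.36 on the Th1 arrays. The bin from 94 Mb read 0.98 and 1.06 in naive cells, 0.76 and 0.94 in Th2 and 0.62 and 0.46 in Th1. In the bin from 95 Mb the Th1 arrays disagreed, at 0.62 and 0.21, but both were below the Th2 arrays at 0.81 and 0.88. The bin from 96.5 Mb, nearest to the bait, was at 0.70 and 0.72 in naive cells, 0.54 and 0.53 in Th2, 0.45 and 0.52 in the Stat4 knockout, and 0.17 and 0.03 in Th1. Both Stat4 knockout arrays were above both Th1 arrays in 6 of the 10 bins of the region, against 33.9% of all bins and 65.3% of those of chromosome 10.

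**Figure D4:**
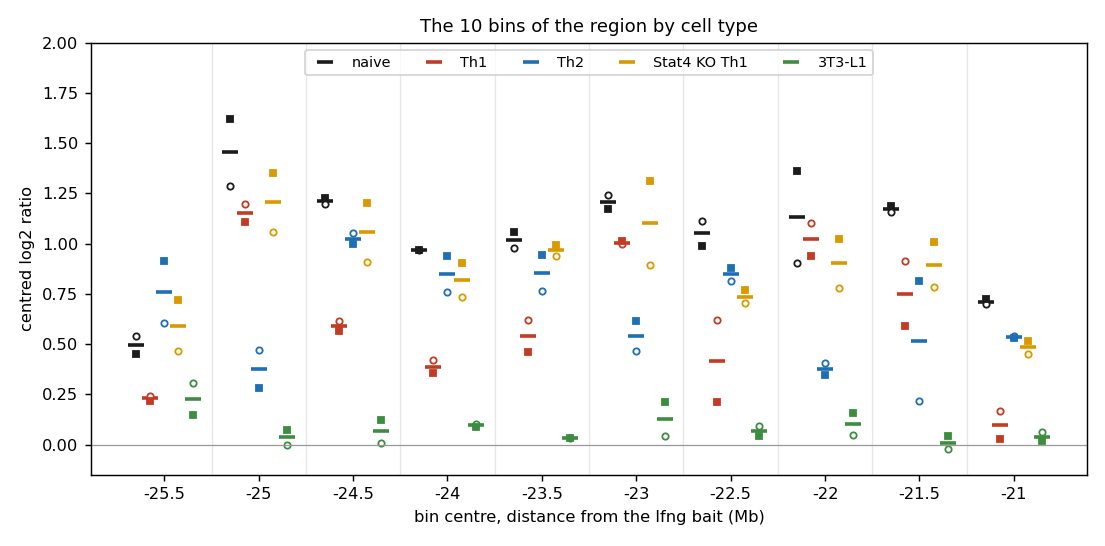
The 10 bins of 500 kb of the region, by distance of the bin centre from the Ifng bait in Mb; open circles are replicate 1, filled squares replicate 2 and dashes the group means of the centred log2 ratio. In the bins centred 25, 23 and 22 Mb from the bait the Th1 marks lie near the naive ones and the Th2 marks well below; in 6 other bins the Th2 marks lie above the Th1 marks.

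Counted over the 10 bins, both Th2 arrays lay below both Th1 arrays in 3 (from 92.5, 94.5 and 95.5 Mb) and above them in 6. Over all bins of the genome these orders occurred in 22.4% and 29.0%, and over those of chromosome 10 in 9.56% and 60.6%, so Th2 lay above Th1 about as often in the region as on its chromosome. Both Th2 arrays lay below both naive arrays in 9 of the 10 bins and above them in 1, against 14.5% and 35.5% of all bins and 45.4% and 32.7% of those of chromosome 10. Both Th2 arrays were below both naive and both Th1 arrays in 3 of the 10 bins, in 24 of the 251 bins of chromosome 10 and in 3.25% of all bins. None of the 20 bins of the neighbouring windows showed that order. Bins further off did, among them several of the window from 77 to 82 Mb, so the order was not particular to the region. These counts use the arrays by which the region was chosen and support no difference.

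The size of the Th2 decrease split the same way. Against naive cells, Th2 was lower by more than 0.6 in 4 bins, with differences of -1.08 (from 92.5 Mb, SE 0.10), -0.67 (94.5 Mb, SE 0.09), -0.75 (95.5 Mb, SE 0.11) and -0.66 (96 Mb, SE 0.13). In 5 bins the difference was between -0.20 and -0.12, and in the bin from 92 Mb it was 0.26. Over the 3 bins with Th2 below Th1, the mean was 0.43 in Th2, 1.06 in Th1, 1.26 in naive cells, 1.07 in the Stat4 knockout and 0.09 in 3T3-L1. Over the 6 bins with Th2 above Th1, it was 0.81 in Th2, 0.38 in Th1, 0.91 in naive cells, 0.78 in the Stat4 knockout and 0.09 in 3T3-L1. That Th1 and Th2 differ between these sets follows from how the sets were made. The naive and Stat4 knockout arrays took no part in making the sets, though the naive arrays had entered the choice of the region.

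The groups also differed in the shape of the profile within the region. Across the 10 bins, the group means of naive and Stat4 knockout cells correlated at r = 0.90, of naive and Th1 cells at 0.84, and of Th1 and Stat4 knockout cells at 0.86. The Th2 profile gave r = -0.27 to naive, -0.57 to Th1 and -0.14 to the Stat4 knockout, while its 2 replicates correlated at 0.61. In 50 bins of 100 kb the same pairs gave 0.64, 0.60, 0.67, -0.16, -0.30, 0.03 and 0.38. With Th1 replicate 1 alone, the values over 10 bins were 0.86 to naive, 0.82 to the knockout and -0.57 to Th2. The points of these correlations are neighbouring bins of the same arrays and cannot be taken as independent, so the correlations are descriptions. The 100-kb bin with the highest naive mean, chr10:93300001-93400000 (14 probes), was high in all T cells, at 1.62 in naive, 1.07 in Th1, 1.28 in Th2 and 1.53 in Stat4 knockout cells, and at 0.21 in 3T3-L1. The lowest, chr10:96900001-97000000 (18 probes) at the edge facing the bait, was at 0.02 in naive cells, 0.00 in Th1, 0.45 in Th2, 0.33 in the Stat4 knockout and 0.07 in 3T3-L1.

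The contacts were carried by a part of the probes. On the naive arrays 40.4% and 44.4% of the region's probes were among the highest 5% of their array, against 28.7% and 29.9% over chromosome 10. The shares were 37.7% and 24.1% in Th1 (chromosome 10: mean 14.6%) and 33.7% and 41.2% in the Stat4 knockout (mean 21.3%). In Th2 they were 19.3% and 26.5%, nearer to the 16.5% and 20.7% of the chromosome. In 3T3-L1 they were 5.29% and 5.52%, below the 11.8% and 11.9% of the chromosome. Averaged over its 2 arrays, the naive group had a median probe at 0.91 and a 90th percentile of 2.53. In Th2 the median probe was at 0.26 and the 90th percentile at 2.11. In Th1 these values were 0.34 and 1.89, in the Stat4 knockout 0.73 and 2.15, and in 3T3-L1 0.04 and 0.45.

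Single probes repeated poorly between replicates, with r from 0.10 (Th2) to 0.25 (Stat4 knockout) over the region's probes in the 5 Ifng pairs. The 2 naive arrays shared 187 probes of the region among their highest 5%, the Stat4 knockout arrays 163, the Th1 arrays 108, the Th2 arrays 60 and the 3T3-L1 arrays 13. Of these, naive and Stat4 knockout cells had 48 in common, which is 25.7% of the naive and 29.4% of the knockout probes. Naive and Th1 cells had 40 in common (21.4% and 37.0%), naive and Th2 cells 8 (4.28% and 13.3%), and Th1 and Th2 cells 2 (1.85% and 3.33%). Of the Th2 probes, 8 (13.3%) were also in the list of the Stat4 knockout. For scale, the naive list holds 21.5% of the region's 869 probes, that of the knockout 18.8% and that of Th1 12.4%. The shares of the Th1 (37.0%) and knockout (29.4%) probes found in the naive list were above its share of all probes, and those of the Th2 probes were below the shares of the lists concerned, on counts of 8 or fewer. Of the 13 probes of 3T3-L1, 5 (38.5%) were in the naive list, 5 in that of the knockout and 3 (23.1%) in that of Th1. These shares too were above those of the lists, so such an excess was not particular to T cells.

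Th1 cells had fewer contacts with the region than naive cells, which limma put at -0.42 over the whole region (SE 0.07, adjusted p = 0.0032). Both Th1 arrays lay below both naive arrays. This test is not fully independent of the choice of the region, since Th2 had been set against these groups. The same holds for every other Ifng test with naive or Th1 arrays. The decrease was not particular to the region: 50.6% of all windows passed the same threshold (adjusted p under 0.05), and the median change of the chromosome 10 windows was -0.38. Without Th1 replicate 2 the change was -0.35 (limma, adjusted p = 0.019). The direction turned with scaling. It became 0.74 when each array was divided by its spread off chromosome 10 and 0.24 when it was divided by its level at 1 to 2 Mb from the bait. That near-bait level was 1.35 and 0.93 on the Th1 arrays against 2.58 and 2.30 on the naive arrays.

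In 6 of the 10 bins Th1 was lower than naive in limma's test, against 7.76% of all bins and 135 of the 251 bins of chromosome 10. The largest changes were in the bins from 95 Mb (-0.64, adjusted p = 7.7e-05, limma), 93 Mb (-0.62, adjusted p = 7.4e-06) and 96.5 Mb (-0.61, adjusted p = 1.4e-07). The other bins that passed were those from 93.5, 94 and 96 Mb, with -0.58, -0.48 and -0.42. The bins from 92, 92.5, 94.5 and 95.5 Mb did not pass, at -0.27, -0.30, -0.20 and -0.11. Without Th1 replicate 2, 5 bins passed, and the bin from 96 Mb did not (-0.26, limma, adjusted p = 0.26). Under both scalings the bins from 93, 94 and 96 Mb changed sign, and the 4 bins that passed were then 3 higher and 1 lower. Th1 then lay furthest above naive cells in other bins, those from 92.5, 94.5 and 95.5 Mb, which had not passed before scaling. With the median probe 1 bin passed, and with quantile normalization 3.

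The Stat4 knockout Th1 cells were higher than wild-type Th1 cells in some bins, but this depended on the processing. The knockout was higher by 0.25 over the region (SE 0.07), which did not pass limma's threshold (adjusted p = 0.062, where 7.88% of windows passed), and the median window of chromosome 10 rose by 0.18. Without knockout replicate 1 it was 0.36 and passed (limma, adjusted p = 0.0062). Without Th1 replicate 2 it was 0.18. Divided by spread or by near-bait level, it turned to -0.48 and -0.16. In the bins, the knockout was higher in 5 of 10, against 1.89% of all bins and 70 of the 251 bins of chromosome 10. These were the bins from 92 Mb (0.36), 93 Mb (0.47), 93.5 Mb (0.43), 94 Mb (0.43) and 96.5 Mb (0.39), with limma's adjusted p from 0.00044 to 0.041. Without Th1 replicate 2, 4 bins passed, and the bin from 92 Mb did not (0.35, limma, adjusted p = 0.26). No bin passed with the median probe, 1 passed with quantile normalization and 1 with trend and robust settings. After division by spread 2 bins passed, both lower in the knockout, and after division by near-bait level 1 was higher and 1 lower. The region's mean passed when centred on chromosome 10 (0.22), with extreme probes left out (0.29) and with trend and robust settings (0.25).

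Against naive cells the Stat4 knockout differed in 2 bins and not in the region's mean. The difference over the region was -0.17 (SE 0.07, limma, adjusted p = 0.076), while 43.3% of all windows passed and the median of chromosome 10 was -0.20. Its sign turned under division by spread (0.26) or near-bait level (0.08), and it was 0.060 when the median probe was used in place of the mean. In 2 bins the knockout was lower, from 95 Mb (-0.31, limma, adjusted p = 0.034) and 96.5 Mb (-0.23, adjusted p = 0.012), against 3.42% of all bins and 100 of 251 on chromosome 10. That count was 4 without knockout replicate 2, and 0 without knockout replicate 1 or without naive replicate 2. By leading digits, both knockout arrays carry array numbers of a series that no other Ifng group used, so array series and genotype cannot be told apart.

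The 3T3-L1 cells lacked the domain. Against naive cells the region was 0.96 lower on the log2 scale (change -0.96, SE 0.07, limma, adjusted p = 9.8e-06), where the median window of chromosome 10 changed by -0.41 and 51.2% of all windows passed. All 10 bins were lower, by differences of -1.42 to -0.27, against 11.3% of all bins and 144 of the 251 on chromosome 10. The Stat4 knockout, which took no part in choosing the region, was 0.79 above 3T3-L1 (SE 0.07, limma, adjusted p = 9.3e-05), where 12.1% of windows passed and the median of chromosome 10 was 0.24. It was higher in all 10 bins, by 0.36 to 1.17, against 3.94% of all bins and 108 of 251 on chromosome 10. Both directions held under every scaling tried, though neither passed the threshold with the median probe (-0.35 and 0.41) or after division by spread (-0.47 and 0.72). The 3T3-L1 arrays also come from array series of their own, so series and cell type cannot be told apart. Their level at 1 to 2 Mb from the bait, 1.55 on both arrays, was between those of Th1 and of the Stat4 knockout (1.90 and 1.84).

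The height of the region over its 2 neighbouring windows was a comparison added after the data had been seen. The naive and Th1 arrays had entered the choice of the region, so height tests with them are not fully independent of it. The height removes a shift added alike to a long stretch of the chromosome, but not a difference of scale between arrays. In limma's test over windows so expressed, the height was lower than in naive cells by differences of -0.36 in Th1 (SE 0.03, adjusted p = 1.4e-08, with 33.3% of windows passing), -0.33 in the Stat4 knockout (adjusted p = 5.2e-08, 14.9% passing) and -0.84 in 3T3-L1 (adjusted p = 4.5e-14, 39.3% passing). The knockout exceeded 3T3-L1 by 0.50 (adjusted p = 6.5e-10, 12.6% passing). It did not pass against Th1, at 0.02 (SE 0.03, adjusted p = 0.72, 1.26% passing). With Th1 replicate 1 alone, Th1 minus naive was -0.34 (limma, adjusted p = 3.1e-06) and the knockout minus Th1 0.0095 (adjusted p = 0.93). The Th2 height, described only, was 0.65 below the naive height and 0.30 below that of Th1 (0.31 below Th1 replicate 1). No height was tested after division by spread or near-bait level. The Th1 heights of 0.40 and 0.38 came with near-bait levels of 1.35 and 0.93 and spreads of 0.031 and 0.033. The naive heights of 0.72 and 0.77 came with near-bait levels of 2.58 and 2.30 and spreads of 0.061 and 0.087. Relative to either measure the Th1 and naive heights overlapped, so the lower Th1 height cannot be told apart from a difference of scale. The Th2 heights stayed the lowest of the T cell groups relative to either. The near-bait level averaged 2.44 in naive, 1.14 in Th1, 1.87 in Stat4 knockout and 1.55 in 3T3-L1 cells.

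Other windows of chromosome 10 had a like order of the 10 arrays. The windows whose values followed the region most closely were those from 127 to 132 Mb (r = 0.95), from 77 to 82 Mb (r = 0.90) and from 67 to 72 Mb (r = 0.88), all r being over the 10 arrays and shared with differences between whole arrays. The first had naive, Th1, Th2, Stat4 knockout and 3T3-L1 means of 1.06, 0.65, 0.90, 0.99 and 0.36, so its 3T3-L1 level was well above that of the region. The second had 1.03, 0.57, 0.50, 0.58 and 0.17, with the Stat4 knockout at the Th1 level. In the region's mean the knockout lay nearer to naive cells than to Th1, as it did in the first of these windows. By height over the neighbouring windows the region's order was another, with the knockout at 0.41, Th1 at 0.39 and naive cells at 0.75.

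From the Il4 bait, which lies on another chromosome, the region was near the level of an average probe. Its log2 ratio was 0.01 and 0.03 on the naive arrays, 0.10 and 0.08 on the Th1 arrays, 0.01 and 0.01 on the Th2 arrays, and 0.11 and 0.06 on the Stat6 knockout arrays. In limma's test the changes were 0.07 for Th1 against naive (SE 0.03, adjusted p = 0.46), -0.01 for Th2 against naive (adjusted p = 1.00) and 0.08 for the Stat6 knockout against Th2 (adjusted p = 0.37). Before adjustment limma's p was 0.038, 0.81 and 0.035 in these. Without Il4 Th2 replicate 2 the last 2 changes were -0.0078 and 0.075, neither passing. Of all windows, 0%, 2.31% and 0% passed. None of the 10 bins passed in any of them, where 0.119%, 2.27% and 0.0199% of all bins did, and at an unadjusted p under 0.05 the count in the region was also 0 in each.

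The region lies in the cytogenetic bands 10qC2 and 10qC3 of mm8, which meet at 95630316 within it. Gene positions came from a RefSeq table of another build (GRCm38), so genes are named only by band, and since the bands reach past the region on both sides a named gene need not lie in it. There, 36 protein-coding genes lie within these bands away from their outer edges, and 23 of a list of 24 were among them, Atp2b1 being the exception. In order along the chromosome, 10qC2 holds Apaf1, which triggers caspase activation in apoptosis; Tmpo, a protein of the nuclear lamina; Nedd1, which anchors gamma-tubulin; and Cdk17, a cyclin-dependent kinase. Then come the ETS factor Elk3, the leukotriene-forming enzyme Lta4h, the histidine ammonia-lyase Hal, the netrin Ntn4, the deubiquitinase Usp44 and the methionine aminopeptidase Metap2. The adherens junction protein Vezt, the nuclear receptor Nr2c1 and the semaphorin receptor Plxnc1 follow. Near the border of both bands lie Cradd, an adaptor of death signalling, and Socs2, a suppressor of cytokine and STAT signalling. The ubiquitin-conjugating enzyme Ube2n, the phosphohydrolase Nudt4, the early endosome protein Eea1 and the antiproliferative factor Btg1 stand beside them. In 10qC3 follow Dcn, Lum, Kera and Epyc, a cluster of small leucine-rich proteoglycans of the extracellular matrix. The arrays measured contacts and no expression, and no gene could be tied to 1 bin.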

How the data were processed

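The region and the lists were chosen with earlier results of these data known. The labels' protocols name HindIII and Csp6I as the enzymes, with the amplified 4C DNA in the Cy5 channel and cut genomic DNA in Cy3. Each value deposited by the authors is the log2 ratio of these channels at a probe. The log base was taken as 2. Sorted values of the Ifng replicates matched within 0.011 at 99.5% of probes or more in 4 pairs but at 42.8% in Th1, so a step that equalised replicates before deposit is possible and would narrow their spread. The scanner, background correction, filters and build are not given in the sources used here. Probes lay past the end of 0 of 21 chromosomes in mm8, against 15, 5 and 8 in mm7, mm9 and mm10, so mm8 was used.

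For every array, the median of probes on chromosomes other than the bait's was subtracted, and values were averaged in 5-Mb windows (at least 200 probes, 520 tested) and 500-kb bins (at least 20 probes, 5023 tested), without probes within 1 Mb of the bait. The bait centre is the middle of the bin that was highest on 7 of the 10 Ifng arrays. Windows and bins were tested with limma 3.58.1 in R 4.3.3, in one fit per bait holding all its groups, two-sided, with Benjamini-Hochberg adjustment over the whole table at 0.05. With 2 arrays against 2, an exact permutation test cannot go below p = 0.333, so none was run. The step was tested on simulated data: for Th1 against naive it recovered 92% of windows changed by 0.2 and 96% of those changed by 0.4. For bins the shares were 44% and 94%. The simulated noise was independent between features and held no difference of scale between arrays, so these shares do not cover errors from scaling. With so few arrays, precision is low. By rule, all 10 bins, the bins beside each edge, the 100-kb bins with the highest and lowest naive mean, the 3 most similar windows and listed genes are named; values by array of the other bins, and the block from 98 Mb, were added after they were seen.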

Additional observations from a re-analysis of the deposited data

How the results depend on the processing

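The arrays differ in spread and in near-bait level, and these limit every difference in level between T cell groups; with 2 arrays a group, 1 array can decide a call. Of 240 alternatives for windows and counts of bins, 180 were counted as unchanged. For tested windows this meant the same direction and side of the threshold, and for counts a share of bins called within a set ratio of the main one. For the described Th2 comparisons it meant a shift smaller than the SD within groups, with no threshold. Of 435 alternatives for single bins that passed, 342 kept direction and side of the threshold, 87 no longer passed and 6 reversed. For Th1 minus naive over the region, the median of probes gave -0.20 and quantile normalization -0.089 (not passing), while division by spread gave 0.74 and by near-bait level 0.24 (both passing in the other direction). Its bins called were 1 with the median, 3 with quantile normalization, 9 of the 25 bins of 200 kb and 5 of the 5 of 1000 kb. Its bins from 93, 94 and 96 Mb reversed to 0.070, 0.13 and 0.35 after division by spread and to 0.061, 0.11 and 0.33 by near-bait level. The Stat4 knockout minus Th1 gave -0.48 by spread and -0.16 by near-bait level, and passed when centred on chromosome 10 (0.22), with extreme probes left out (0.29) and with trend and robust settings (0.25). Its called bins were 0 with the median, 2 by spread (both lower), 1 with quantile normalization, 2 by near-bait level, 1 with trend and robust settings and 3 of the 200-kb bins. The knockout minus naive gave 0.060 with the median, 0.26 by spread and 0.080 by near-bait level, and -0.33 against its neighbours, which passed. Its called bins were 0 with the median, by spread, with quantile normalization, by near-bait level and with trend and robust settings, 3 of the 200-kb bins and 2 of the 1000-kb bins. For 3T3-L1 minus naive the median gave -0.35 and spread -0.47, and for the knockout minus 3T3-L1 0.41 and 0.72, none passing; 3 bins passed in each with the median. The cause of these differences was not tested.

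The described Th2 minus naive difference was -0.23 with the median, 0.040 by spread, -0.28 with quantile normalization, -0.24 with array number series as a block and -0.65 against its neighbours. Th2 minus Th1 was -0.70 by spread, -0.19 with quantile normalization, -0.60 by near-bait level and -0.30 against its neighbours (-0.31 with Th1 replicate 1 alone). The knockout minus Th2 was 0.44 by near-bait level. 3T3-L1 minus Th2 was -0.13 with the median, -0.51 by spread, -0.47 with quantile normalization, -0.37 by near-bait level and -0.18 against its neighbours. From Il4, Th2 minus naive reversed to 0.0045 with quantile normalization and 0.0039 by near-bait level.

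Leaving out 1 array at a time gave -0.49 to -0.35 for Th1 minus naive (5 to 7 bins), 0.15 to 0.36 for the knockout minus Th1 (4 to 6 bins), -0.27 to -0.061 for the knockout minus naive (0 to 4 bins), -0.99 to -0.92 for 3T3-L1 minus naive (9 bins each time) and 0.69 to 0.90 for the knockout minus 3T3-L1 (9 to 10 bins). It gave -0.44 to -0.32 for Th2 minus naive, -0.03 to 0.11 for Th2 minus Th1, 0.11 to 0.32 for the knockout minus Th2 and -0.64 to -0.52 for 3T3-L1 minus Th2. From Il4 it gave 0.063 to 0.085, -0.018 to 0.0030 and 0.049 to 0.10. The replicate numbers did not pair the arrays (r of the replicate differences from -0.77 to 0.47 between groups), and the replicate block changed no call over the whole region (Th1 minus naive -0.42, limma, adjusted p = 0.0039) and left 4 bins in place of 5 for the knockout minus Th1, since the bin from 92 Mb no longer passed (limma, adjusted p = 0.051). With the array number series as a block, Th1 minus naive was -0.35 (limma, adjusted p = 0.028), which is also the value within the one series holding both groups; the knockout and 3T3-L1 groups could not be fitted with it.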
